A study of Mus musculus with 30 samples.

Results

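The comparison described here asks how the effect of an antibody against CD40L on the salivary gland changed between the ages of 16 and 24 weeks. It is the difference between anti-CD40L and control glands at week 24 minus the same difference at week 16, and it uses 20 of the 30 arrays of the series, 5 in each of 4 groups chosen by their titles. The animals were female NOD.H-2h4 mice injected once into the peritoneum, at the age of 4 weeks, with anti-CD40L or with a human IgG1 isotype control antibody, each at 20 mg/kg. The glands were taken whole at week 16 or week 24, each array was described as a biological replicate, and each age therefore had its own arrays. The other 10 arrays, from week 8, entered the model only through its estimate of the spread. All 4 groups shared the strain, the sex, the age at injection and the housing. The dose was given once, early in life, and the gland was not divided into its parts, which limits what the groups can model.

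CD40L (gene Cd40lg) is a surface protein of activated helper T cells. It binds CD40 on B cells, dendritic cells and other cells, and this signal is needed for germinal centres, for switching of antibody class and for much of the antibody response to protein antigens. NOD.H-2h4 mice develop autoimmune inflammation of the salivary gland with age, in which B and T cells gather around the ducts. A salivary gland is otherwise made of acinar cells that secrete saliva, ducts that modify it, contractile myoepithelial cells, and a stroma of fibroblasts, vessels and nerves.

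Levels are log2 intensities of an Affymetrix whole-genome mouse array, so a difference of 1 is a 2-fold difference. Each gene was read from 1 probe set. A change of the treatment effect is given as its log2 size ± standard error from a limma model with 5 arrays per group, and a gene passed the test when its Benjamini-Hochberg adjusted p over 12998 genes was under 0.05. The standard error of such a change had a median of 0.196 over all genes, against 0.139 for the effect at a single week. The p-values measure the spread between these arrays. In whole gland, fewer cells of a type and less RNA per cell cannot be told apart.

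Acinar markers were high in all groups. The acinar markers with a probe set, Aqp5, Slc12a2, Bhlha15 and Dcpp1, averaged 12.62, 12.57, 12.16 and 12.06 in the order control week 16, anti-CD40L week 16, control week 24 and anti-CD40L week 24. Amy1, a product of the parotid gland, varied from 7.01 to 13.64 between arrays and was above 10 in 2 of 5, 2 of 5, 2 of 5 and 3 of 5 arrays in that order. Amy1 therefore differed widely within each group, and the change of the treatment effect on Amy1 was 0.42 (exact permutation test over 63504 relabellings within weeks, two-sided, p = 0.864). The array's control probe sets for Gapdh and beta-actin read the 3' and 5' ends of these transcripts, and the difference between the ends, which rises as RNA is shorter, averaged 0.29, 0.26, 0.41 and 0.20. Anti-CD40L minus control was -0.03 in it at week 16 (exact permutation p = 0.413). At week 24 it was -0.20 and the groups did not overlap (exact permutation p = 0.00794, the smallest that 5 arrays against 5 can give, adjusted p 0.0247 over 9 tests). The change of this difference between the weeks was -0.17 and did not pass (exact permutation p = 0.0518, adjusted p 0.117). The median correlation of an array with the other arrays changed by 0.0166 (exact permutation p = 0.00822, adjusted p 0.0247). Its anti-CD40L minus control at week 24 alone was 0.0118 (exact permutation p = 0.00794). Labels were exchanged within each week, so an effect at 1 week alone can also give a small p for the change. Week 24 control replicate 1 stood apart with a difference of 0.61 and a median correlation of 0.935 with the other arrays. Genes named below as called that lose their call without this array, or with the 3' minus 5' difference as a covariate, are given with that value. Values within arrays with Amy1 of 10 or less, and those within arrays above 10, come from 2 or 3 arrays in each group. The part of Amy1 in the results was not tested beyond these values.

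**Figure D1:**
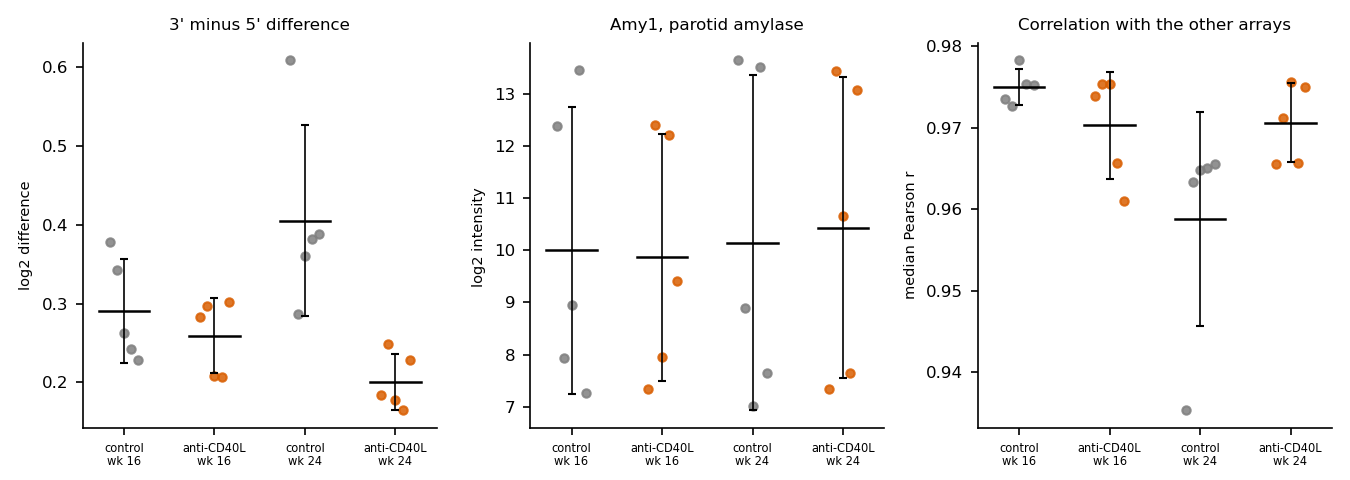
Array measures by group, each point 1 of 5 arrays, with bars for the mean and whiskers for the SD. Left, the 3' minus 5' difference (log2), higher in all 5 week 24 controls than in the 5 anti-CD40L arrays of that week; middle, Amy1 (log2 intensity), spread widely in every group; right, the median Pearson correlation of an array with the other arrays, where week 24 control replicate 1 lies at 0.935.

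Between weeks 16 and 24 the effect of anti-CD40L differed for a small set of genes. The change passed the test for 151 of 12998 genes (1.16%). It was upward for 82 genes (0.631%) and downward for 69 (0.531%). At an unadjusted p under 0.05 there were 2301 genes (17.7%), and over all genes tested the median change was 0.0074. Of the 82 genes that moved up, 78 were below the controls at week 16 and above them at week 24. Of the 69 that moved down, 67 were above the controls at week 16 and below them at week 24. Opposite signs at the 2 weeks were thus seen for 145 of the 151 genes and for 41.8% of all genes tested, a share that the choice of genes with a large change raises by itself. These are signs of estimates, and the effect passed at both weeks for 4 of the 82 genes and 1 of the 69. The median change was 0.91 for the genes that moved up and -0.82 for those that moved down.

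Both treatment groups contributed. Among the 82 genes that moved up, controls fell between week 16 and week 24 past the test in 49 (7.39% of all genes) and anti-CD40L glands rose in 38 (2.5%), and in 44 the controls gave the larger part. Among the 69 that moved down, controls rose in 31 (5% of all genes), anti-CD40L glands fell in 37 (2.88%), and in 27 the controls gave the larger part. Irrespective of direction, controls differed between the ages in 12.4% of all genes and anti-CD40L glands in 5.38%. At week 24 alone the treatment effect passed for 1229 genes (9.46%) and at week 16 alone for 245 (1.88%). Of the genes that moved up, 53 passed at week 24 and not at week 16, 15 at week 16 and not at week 24, 4 at both and 10 at neither. Of those that moved down, the numbers were 22, 30, 1 and 16. The shifts and effects use the same arrays as the change. Choosing genes with a large change therefore raises all these counts over the shares of all genes by itself. The number of genes called varied from 46 without anti-CD40L replicate 5 of week 16 to 352 without control replicate 4 of week 24. All 151 kept their direction in each of the 20 fits that left out 1 array, which the choice of genes with a large change favours by itself.

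**Figure D2:**
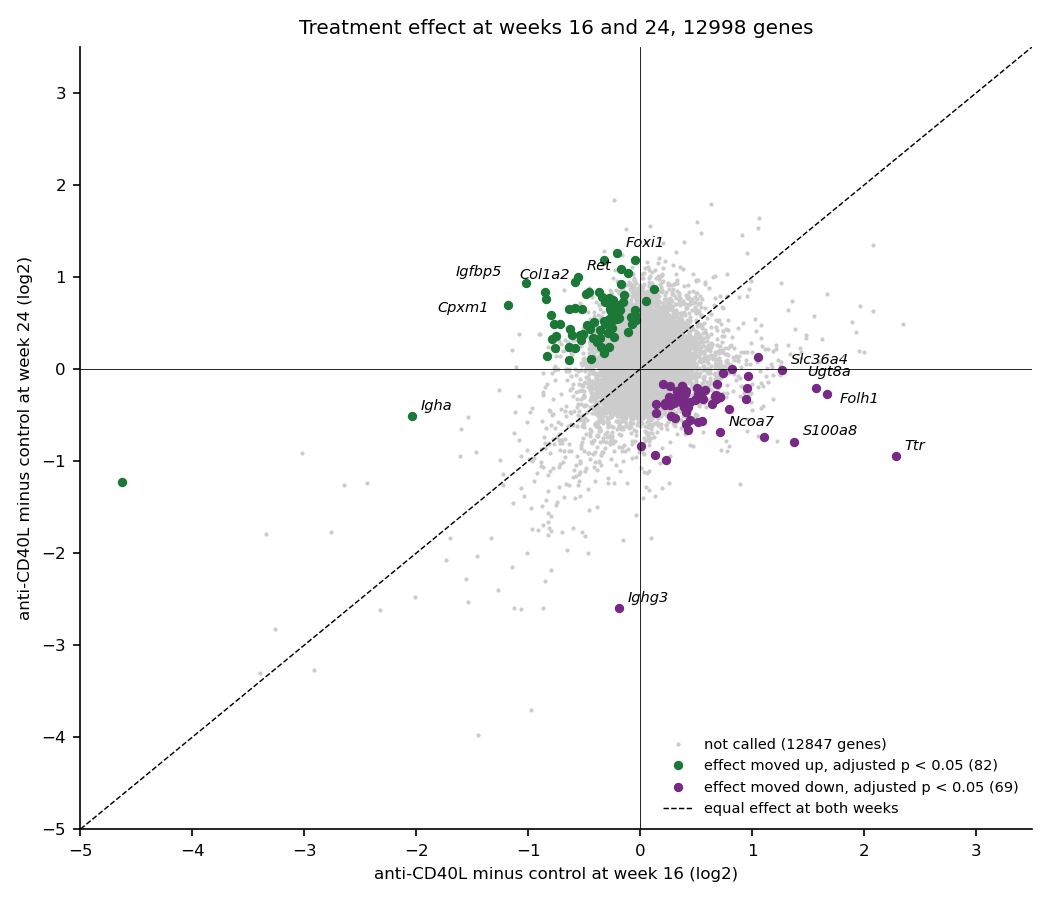
Treatment effect (anti-CD40L minus control, log2) at week 16 on the x axis and at week 24 on the y axis for 12998 genes. The 82 genes whose effect moved up lie above the dashed line of equal effects, 78 of them with an effect below 0 at week 16 and above 0 at week 24. The 69 whose effect moved down lie below that line, 67 of them with the opposite signs.

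Genes of the connective tissue held 6 of the 16 called list members. Of a list of 25 tested fibroblast and matrix genes, 6 moved up and 0 moved down (percent called upward over all genes 0.631%): Col1a2, which encodes a chain of type I collagen, Col6a1, Col6a2 and Col6a3, the chains of the beaded-filament collagen type VI, Col15a1, a collagen of basement membrane zones, and Pdgfra, the receptor that marks many fibroblasts. The change was above 0 for 22 of the 25 (51.1% of all genes), with a median of 0.64 against 0.0074 over all genes. This list and the others below were chosen with earlier results of these data known. Their counts beside the shares of all genes are therefore description only. The median treatment effect of the list was -0.42 at week 16, where 3 members passed downward (0.577% of all genes), and 0.30 at week 24, where 7 passed upward (5.96%). The median member differed by -0.30 between the ages in controls and by 0.47 in anti-CD40L glands.

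The promoters of members of this group, and of the chaperone gene Dnajb9 described further on, are shown because their transcripts moved upward in the same comparison. Each is the RefSeq window from 250 bases before to 50 bases after a transcription start on build GRCm38.p6, written 5′ to 3′ on the strand of the gene. Capitals mark the CCAAT box (CCAAT, or ATTGG on the other strand) and the E-box (CACGTG, the same on both strands), and no match of one overlapped a match of the other.
Col1a2, chr6:4505368-4505667, plus strand: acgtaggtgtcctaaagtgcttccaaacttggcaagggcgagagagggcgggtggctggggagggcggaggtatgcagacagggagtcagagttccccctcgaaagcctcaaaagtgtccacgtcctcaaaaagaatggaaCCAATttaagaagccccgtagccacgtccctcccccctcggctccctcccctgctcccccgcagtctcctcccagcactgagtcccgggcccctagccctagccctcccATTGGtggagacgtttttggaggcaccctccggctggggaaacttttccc
Col6a1, chr10:76725995-76726294, minus strand: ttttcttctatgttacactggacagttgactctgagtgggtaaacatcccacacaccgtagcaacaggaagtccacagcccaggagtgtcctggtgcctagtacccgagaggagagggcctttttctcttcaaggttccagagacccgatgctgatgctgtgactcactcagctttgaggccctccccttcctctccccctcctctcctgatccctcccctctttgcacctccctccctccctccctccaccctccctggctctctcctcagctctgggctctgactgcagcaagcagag
Col6a2, the first of 2 listed starts, chr10:76623355-76623654, minus strand: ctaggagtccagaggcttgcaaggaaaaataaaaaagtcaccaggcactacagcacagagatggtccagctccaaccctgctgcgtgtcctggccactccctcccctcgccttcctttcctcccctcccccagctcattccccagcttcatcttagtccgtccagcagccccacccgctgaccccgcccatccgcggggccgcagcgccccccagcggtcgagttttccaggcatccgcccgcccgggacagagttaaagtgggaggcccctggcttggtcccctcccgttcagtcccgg
Dnajb9, chr12:44210019-44210318, minus strand: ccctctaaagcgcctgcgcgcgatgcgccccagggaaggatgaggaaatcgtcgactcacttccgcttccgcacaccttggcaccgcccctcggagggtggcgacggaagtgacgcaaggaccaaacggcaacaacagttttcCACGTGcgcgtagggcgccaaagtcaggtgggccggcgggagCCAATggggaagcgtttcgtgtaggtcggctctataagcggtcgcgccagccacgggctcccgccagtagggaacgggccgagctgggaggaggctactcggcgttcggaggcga
The Col1a2 window held 2 CCAAT boxes, the Dnajb9 window held 1 CCAAT box and 1 E-box, and the windows of Col6a1 and Col6a2 held 0 of either. Of 32851 promoter windows of this length, 37.4% held a CCAAT box and 7.15% an E-box. A match is a description of the letters only. In the RefSeq gene order of chromosome 10, 0 protein-coding genes lie between Col6a1 and Col6a2.

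The levels of Col1a2 show the pattern array by array. At week 16 Col1a2 read 10.99, 10.87, 10.49, 10.76 and 10.83 in controls and 9.89, 10.54, 10.08, 9.22 and 9.95 after anti-CD40L. At week 24 it read 9.28, 10.37, 10.01, 10.24 and 10.14 in controls and 10.71, 10.71, 11.56, 10.60 and 10.68 after anti-CD40L. The change was 1.70 ± 0.34 (adjusted p = 0.0164). At week 16, 4 of the 5 anti-CD40L arrays lay below every control, and at week 24 all 5 lay above every control. The effect itself was -0.85 ± 0.24 at week 16 (adjusted p = 0.0618) and 0.84 ± 0.24 at week 24 (adjusted p = 0.0319). Its 2 other probe sets, of lower signal, were at 1.89 and 0.15.

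Col6a2 read 9.31, 9.35, 9.22, 9.21 and 9.44 in controls and 8.47, 9.18, 8.65, 8.40 and 8.93 after anti-CD40L at week 16. It read 7.73, 8.76, 8.44, 8.78 and 8.69 in controls and 9.19, 9.49, 9.94, 9.03 and 9.50 after anti-CD40L at week 24. The change was 1.53 ± 0.31 (adjusted p = 0.0156). The treated arrays lay wholly below the controls at the first age and wholly above them at the second, with no overlap at either. The neighbour Col6a1 changed by 1.17 ± 0.24 (adjusted p = 0.0196), from means of 8.41 in controls and 7.89 after anti-CD40L at week 16 to 7.72 and 8.37 at week 24. Col6a3, the third chain of the same collagen, changed by 1.06 ± 0.23 (adjusted p = 0.0218), from 8.87 and 8.24 to 8.43 and 8.87. All 3 chains of type VI collagen thus had a mean below control at week 16 and above it at week 24. Col15a1 changed by 1.25 ± 0.24 (adjusted p = 0.0127), from 7.08 and 6.50 to 6.59 and 7.26, and Pdgfra by 0.99 ± 0.23 (adjusted p = 0.0289), from 8.98 and 8.73 to 8.58 and 9.32. Pdgfra rests on 1 probe set, since its 2 others, of lower signal, were at 0.35 and 0.43, and with the median over probe sets it was at 0.32 (adjusted p = 0.395). Col6a3 was at 0.98 (adjusted p = 0.0691) within arrays with Amy1 of 10 or less. Week 24 anti-CD40L replicate 3 had the highest value of its group for Col1a2, Col6a1, Col6a2, Col6a3 and Pdgfra.

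Other fibrillar collagens of the list had the same sign and missed the threshold. Col1a1, the partner chain of Col1a2, had a change of 1.54 ± 0.40 (adjusted p = 0.0532), and Col3a1, the chain of type III collagen, one of 1.07 ± 0.34 (adjusted p = 0.11). In all, 16 of the 25 list members had an unadjusted p under 0.05 and an upward change, against 9.42% of all genes tested. The list median was 0.62 with the 3' minus 5' difference as a covariate, and 5 members passed. Among those 5 was Col3a1 (1.38, adjusted p = 0.0485), which was not called in the main analysis. In that fit Col6a1 was at 0.93 (adjusted p = 0.0563) and Pdgfra at 0.85 (adjusted p = 0.0847). The list median was 0.68 without week 24 control replicate 1, and 5 members passed, with Pdgfra at 0.90 (adjusted p = 0.071). Without control replicates 1 and 4 of week 16 together, 2 members passed and the median was 0.70. Without anti-CD40L replicate 4 of week 16, 4 members passed and Col6a3 had an adjusted p of 0.0529.

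Several genes outside the list encode secreted or stromal proteins and moved the same way. They were noticed among the called genes, so they do not count as support for the group. Igfbp5, a secreted binding protein of insulin-like growth factors, read 9.67, 9.61, 9.28, 9.42 and 9.62 in controls and 8.47, 9.05, 8.72, 7.67 and 8.60 after anti-CD40L at week 16. It read 8.12, 9.36, 8.59, 9.06 and 9.04 in controls and 9.64, 9.56, 10.34, 9.78 and 9.54 after anti-CD40L at week 24. The change was 1.96 ± 0.38 (adjusted p = 0.0127). Both ages showed a full separation of the antibody groups, in opposite directions. A second Igfbp5 probe set of lower signal was at -0.11, so the probe sets of this gene disagree, and their median gave 0.92 (adjusted p = 0.026).

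Cpxm1, a secreted member of the carboxypeptidase family, read 6.44, 6.82, 6.36, 6.18 and 6.44 in controls and 5.37, 5.76, 5.51, 4.75 and 4.95 after anti-CD40L at week 16. It read 5.68, 6.92, 6.12, 6.07 and 6.09 in controls and 6.71, 6.66, 7.35, 6.93 and 6.70 after anti-CD40L at week 24. The change was 1.87 ± 0.31 (adjusted p = 0.00345). All 5 treated arrays were below every control at week 16, while at week 24 only 2 were above every control because control replicate 2 read 6.92. Anti-CD40L glands gained 1.60 between the ages (adjusted p = 0.000147) and controls differed by -0.27 (adjusted p = 0.406), so the change lay mainly in the treated mice. Smoc2, a matricellular protein of basement membranes, changed by 0.99 ± 0.21 (adjusted p = 0.0196), from means of 8.22 and 7.46 to 8.08 and 8.31. Fmod, the collagen-binding proteoglycan fibromodulin, changed by 1.11 ± 0.28 (adjusted p = 0.0491), from 6.62 and 5.86 to 6.71 and 7.06. Itga8, an integrin subunit of mesenchymal and smooth muscle cells, changed by 1.11 ± 0.25 (adjusted p = 0.0264), from 6.76 and 5.97 to 6.70 and 7.03. For Smoc2, Fmod and Itga8 the treatment effect passed at week 16 (adjusted p 0.00578, 0.0471 and 0.0205) and not at week 24 (0.295, 0.236 and 0.224).

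Gas1, a membrane-anchored protein that takes part in Hedgehog signalling, changed by 1.30 ± 0.26 (adjusted p = 0.0142), with means of 9.64 and 9.18 at week 16 and 9.06 and 9.90 at week 24. It separated the antibody groups fully at both ages, downward and then upward. Its 2 other probe sets, of lower signal, were at 0.62 and 0.26, and with the median over probe sets Gas1 was at 0.62 (adjusted p = 0.132). Notch1, the receptor of the Notch pathway, changed by 0.85 ± 0.22 (adjusted p = 0.0493), from 8.42 and 8.09 to 7.63 and 8.16. Here controls fell by 0.78 (adjusted p = 0.00338) and treated glands differed by 0.07 (adjusted p = 0.879). Without week 24 control replicate 1 the adjusted p of Notch1 was 0.113, and that of Itga8 was 0.0601. Fmod lost its call in 18 of the 20 fits that left out 1 array, with adjusted p up to 0.106 without anti-CD40L replicate 4 of week 16 and 0.0924 without week 24 control replicate 1. With the 3' minus 5' difference as a covariate the adjusted p was 0.0909 for Fmod and 0.139 for Notch1. With the median over probe sets Fmod was at 0.84 (adjusted p = 0.0925) and Notch1 at 0.48 (adjusted p = 0.132). Within arrays with Amy1 of 10 or less the adjusted p was 0.0848 for Fmod, 0.107 for Itga8 and 0.0625 for Notch1.

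**Figure D3:**
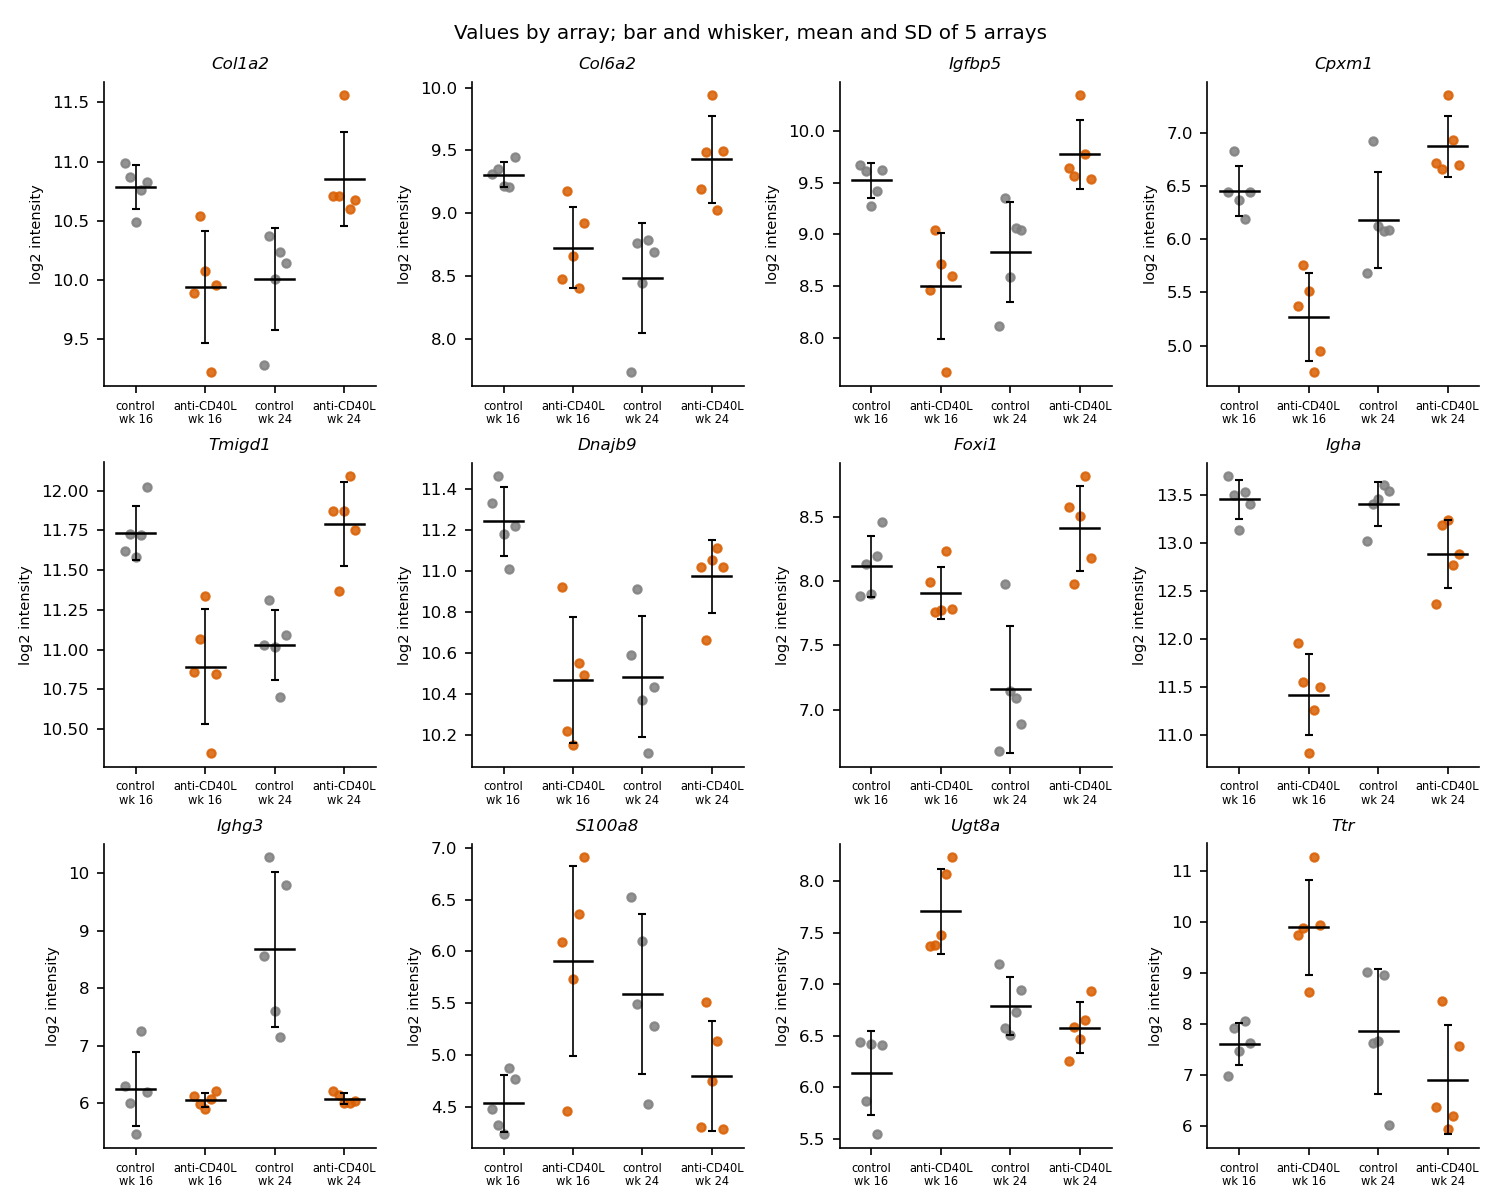
Log2 intensity of 12 genes in each of the 20 arrays, with bars for the mean and whiskers for the SD of 5 arrays. In Col6a2 and Tmigd1 the treated arrays (orange) lie below all controls (grey) at week 16 and above all of them at week 24. In Ighg3 the week 24 controls stand above both treated groups and overlap the week 16 controls.

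Single genes with known roles in epithelium were called upward, whereas 0 of 10 granular duct and 0 of 17 claudin and tight junction genes passed. Tmigd1, in none of the lists and an adhesion protein of epithelial cells, was the change with the smallest p among the named genes. It read 11.62, 11.73, 11.58, 11.72 and 12.02 in controls and 10.86, 11.07, 11.34, 10.35 and 10.85 after anti-CD40L at week 16. At week 24 it read 11.03, 11.31, 11.02, 10.70 and 11.09 in controls and 11.87, 11.37, 11.87, 12.09 and 11.75 after anti-CD40L. The change was 1.60 ± 0.21 (adjusted p = 0.000344). The antibody groups were apart at both ages with no overlap. Controls fell by 0.70 (adjusted p = 0.00495) and treated glands rose by 0.89 (adjusted p = 0.000806), so nearly equal shifts of the 2 groups crossed each other. The adjusted p stayed at or below 0.00135 in all 20 fits that left out 1 array.

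Among duct genes, 1 of 23 tested members moved up (0.631% of all genes) and the list median was 0.24. That member was Foxi1, the transcription factor of acid-secreting and ionocyte-like cells. Foxi1 read 7.88, 8.14, 7.90, 8.19 and 8.46 in controls and 7.99, 7.76, 7.78, 8.23 and 7.78 after anti-CD40L at week 16. It read 6.68, 7.98, 7.14, 7.09 and 6.89 in controls and 8.58, 7.98, 8.51, 8.82 and 8.18 after anti-CD40L at week 24. The change was 1.46 ± 0.31 (adjusted p = 0.0218). At week 16 the groups overlapped, with 3 treated arrays below every control. At week 24 control replicate 2 at 7.98 was level with the lowest treated array while the other 4 controls lay below all treated arrays. The change in Foxi1 was 1.34 without week 24 control replicate 1 (adjusted p = 0.0537). Ret, the receptor of glial cell line-derived neurotrophic factor and its relatives, changed by 1.56 ± 0.34 (adjusted p = 0.0218), from means of 8.93 and 8.37 to 7.63 and 8.63. Its controls fell by 1.30 between the ages (adjusted p = 0.00213), while treated glands differed by 0.26 (adjusted p = 0.619). Without week 24 control replicate 1 the adjusted p of Ret was 0.0537, and with the 3' minus 5' difference as a covariate it was 0.0649.

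Among acinar genes, 1 of 17 tested members moved up (0.631% of all genes) and the list median was 0.25. That member was Bhlha15, which encodes MIST1, the transcription factor that maintains the secretory apparatus of acinar cells. Bhlha15 read 11.60, 11.98, 11.86, 11.61 and 11.93 in controls and 11.67, 11.45, 11.67, 11.52 and 11.30 after anti-CD40L at week 16. It read 10.20, 10.96, 10.57, 10.80 and 11.14 in controls and 11.62, 11.27, 11.56, 11.75 and 11.34 after anti-CD40L at week 24. The change was 1.05 ± 0.26 (adjusted p = 0.044). The groups overlapped at week 16, and at week 24 every control was below every treated array. Controls fell by 1.06 (adjusted p = 0.00158), and treated glands differed by -0.01 between the ages (adjusted p = 0.981). The change in Bhlha15 was 0.91 without week 24 control replicate 1 (adjusted p = 0.102), and with the 3' minus 5' difference as a covariate it was 0.66 (adjusted p = 0.0872). With the median over probe sets it was 0.76 (adjusted p = 0.114). The water channel gene Aqp5, the defining product of acinar cells, had a change of 0.04 ± 0.20 (adjusted p = 0.948).

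Of 16 myoepithelial and smooth muscle genes, 1 moved up (0.631% of all genes), and 15 had a change above 0 (51.1% of all genes) with a median of 0.45. The called gene was Trp63, the transcription factor of basal and myoepithelial cells, at 0.67 ± 0.16 (adjusted p = 0.031), with means of 6.44 and 6.15 at week 16 and 6.12 and 6.51 at week 24. Without control replicate 5 of week 16 its adjusted p was 0.0655, and without week 24 control replicate 1 it was 0.0537. Of 3 other Trp63 probe sets of lower signal, 2 had a change below 0 (-0.03 and -0.07), and within arrays with Amy1 of 10 or less Trp63 had an adjusted p of 0.19. All 10 tested genes of the granular duct, the duct segment that secretes kallikreins and growth factors, had a change above 0 with a median of 0.40, but 0 passed. The member with the largest statistic, the kallikrein gene Klk1b27, had a change of 0.64 ± 0.26 (adjusted p = 0.198). The epithelial medians were smaller with the 3' minus 5' difference as a covariate, at 0.13 for duct, 0.03 for acinar, 0.15 for myoepithelial and 0.23 for granular duct genes.

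Chaperone genes were called singly. Dnajb9, an endoplasmic reticulum co-chaperone of BiP that is induced by the unfolded protein response, read 11.33, 11.46, 11.18, 11.01 and 11.22 in controls and 10.92, 10.22, 10.15, 10.55 and 10.49 after anti-CD40L at week 16. It read 10.59, 10.91, 10.37, 10.11 and 10.43 in controls and 11.02, 10.66, 11.05, 11.11 and 11.02 after anti-CD40L at week 24. The change was 1.26 ± 0.20 (adjusted p = 0.00345). Every treated array was below every control at week 16, and 4 of 5 were above every control at week 24. Dnajb9 was the single called member of 23 tested genes of the unfolded protein response (0.631% of all genes called upward). Their median change was -0.11. Hspa5, which encodes BiP itself, had a change of 0.08 ± 0.11 (adjusted p = 0.731). The call of Dnajb9 held in all 20 fits that left out 1 array and with the 3' minus 5' difference as a covariate (1.35, adjusted p = 0.00428). Among 15 heat shock genes, with a median change of 0.24, 1 passed upward (0.631% of all genes). That gene was Hspa1b, the inducible cytosolic chaperone Hsp70. Hspa1b changed by 0.69 ± 0.17 (adjusted p = 0.039), with means of 10.97 and 11.02 at week 16 and 10.23 and 10.96 at week 24. At week 24 all 5 treated arrays of Hspa1b lay above every control. Its adjusted p was 0.0911 without week 24 control replicate 1, and with the 3' minus 5' difference as a covariate 0.106.

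Antibody genes moved in both directions. Of 10 tested genes of an immunoglobulin list, 1 moved up (0.631% of all genes), 1 moved down (0.531%) and the median change was 0.36. The direction of that median turned with Amy1, at -0.45 within arrays with Amy1 of 10 or less and 2.01 within arrays above 10. Igha, the constant region of the IgA heavy chain that is the main antibody class of saliva, read 13.69, 13.50, 13.13, 13.53 and 13.40 in controls and 11.96, 11.55, 10.81, 11.26 and 11.50 after anti-CD40L at week 16. It read 13.02, 13.40, 13.45, 13.60 and 13.54 in controls and 12.36, 13.18, 13.24, 12.77 and 12.88 after anti-CD40L at week 24. The change was 1.52 ± 0.38 (adjusted p = 0.0408). At week 16 the 2 groups were far apart, and at week 24 anti-CD40L replicates 2 and 3 had reached the range of the controls. The treatment effect was -2.04 ± 0.27 at week 16 (adjusted p = 5.14e-05) and -0.51 ± 0.27 at week 24 (adjusted p = 0.194). Controls differed by -0.05 between the ages (adjusted p = 0.92), whereas treated glands gained 1.47 (adjusted p = 0.00158).

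The joining chain gene Jchain is needed for polymeric IgA and IgM. Its means were 12.13 and 8.79 at week 16 and 12.56 and 10.77 at week 24. The change was 1.54 ± 0.48 (adjusted p = 0.10). Jchain stayed lower in every treated array than in every control at both ages, and treated glands gained 1.98 between them (adjusted p = 0.00101). Igha lost its call in 13 of the 20 fits that left out 1 array, with adjusted p up to 0.0924 without week 24 control replicate 1. With the 3' minus 5' difference as a covariate the adjusted p was 0.113 for Igha and 0.0485 for Jchain. Within arrays with Amy1 of 10 or less Igha was at 1.03 (adjusted p = 0.307) and Jchain at 0.47 (adjusted p = 0.67), so the call of Igha was lost there.

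Ighg3, the constant region of IgG3, moved the other way. It read 6.30, 6.01, 5.46, 7.26 and 6.20 in controls and 6.12, 5.98, 5.90, 6.07 and 6.20 after anti-CD40L at week 16. It read 8.55, 10.28, 7.61, 7.16 and 9.80 in controls and 6.22, 6.15, 6.0, 5.99 and 6.04 after anti-CD40L at week 24. The change was -2.41 ± 0.58 (adjusted p = 0.0339). The antibody groups overlapped at week 16, and at week 24 all 5 controls stood above all treated arrays. Controls rose by 2.44 (adjusted p = 0.000979) and treated glands differed by 0.03 (adjusted p = 0.984). Igha thus rose in treated glands toward the control level, whereas Ighg3 rose in controls and stayed low after anti-CD40L. Without anti-CD40L replicate 5 of week 16 the adjusted p of Ighg3 was 0.0708, without week 24 control replicate 1 it was 0.0656, and the call was lost in 12 of the 20 fits. The change was -2.46 with the 3' minus 5' difference as a covariate (adjusted p = 0.0649). Ighg3 has 3 other probe sets of low signal, with changes between 0.04 and 0.30. For Ighm, which encodes the heavy chain of IgM, the change was -2.53 ± 1.09 (adjusted p = 0.221), from means of 9.35 and 7.90 to 12.76 and 8.78, with arrays of week 16 controls spread from 7.54 to 12.52.

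Lymphocyte genes had changes below 0 and no call. Of 14 tested B cell genes 0 passed and 13 had a change below 0 (48.9% of all genes), with a median of -0.87. At an unadjusted p under 0.05 there were 9 of 14, against 8.28% of all genes in that direction. Ms4a1, which encodes CD20, had means of 5.70 and 4.72 at week 16 and 8.61 and 4.91 at week 24, and had a change of -2.73 ± 0.83 (adjusted p = 0.0954). Cd79b, a chain of the B cell receptor complex, had a change of -1.73 ± 0.51 (adjusted p = 0.0897). Among the arrays compared here, Ms4a1 and Cd79b lay above the array median only in controls. These were every control of week 24 and replicates 1 and 4 of week 16. Mainly the week 24 controls thus counted toward their filter for testing, which favours a change below 0 by itself. The 13 of 14 beside 48.9% is therefore description only. Whether other members of these lists passed the filter in this way was not tested. Of 12 T cell genes 0 passed and 12 had a change below 0, with a median of -0.63, and Cd3d of the T cell receptor complex had a change of -1.45 ± 0.66 (adjusted p = 0.243). The median treatment effect of the B cell list was -0.48 at week 16 and -1.15 at week 24, and that of the T cell list was -0.43 and -1.01. The downward effect at week 24 passed for 12 of the 14 B cell genes and 9 of the 12 T cell genes (3.49% of all genes).

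Week 16 controls were not alike in these lists. The mean level of the B cell list was 6.44 and 6.71 in control replicates 1 and 4 of week 16 and 5.49 to 5.54 in the other 3. In week 24 controls it was 6.14 to 7.91, and in treated arrays 5.35 to 5.59 at week 16 and 5.46 to 5.84 at week 24. Without those 2 controls the list median was -1.13, and Ms4a1 and Cd79b passed (-3.81, adjusted p = 0.0334, and -2.32, adjusted p = 0.0374). Those 2 were also the week 16 controls with Amy1 above 10. Within arrays with Amy1 of 10 or less the median of the B cell list was -1.52, and within arrays with Amy1 above 10 it was 0.06. The T cell list was at -1.42 and 0.19, so neither list had a median below 0 in the few arrays with higher Amy1. Markers of lymph node tissue were also read, and only 1 of them, Glycam1, passed the filter for testing. Over Glycam1, Cr2, Fcer2a and Ccr7, the 4 of 7 markers with a probe set, the mean level was 4.45 to 5.32 in week 16 controls and 4.64 to 6.49 in week 24 controls. It was 4.38 to 4.52 and 4.29 to 4.53 in treated arrays of the 2 ages. Glycam1, a product of high endothelial venules, read 8.33 and 7.95 in replicates 1 and 2 of week 24 controls and 4.60 to 5.33 in replicates 3 to 5. Whether lymphoid tissue next to the gland entered some samples was not tested.

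Further immune lists gave 0 calls. The BAFF and APRIL system had 4 tested genes with a median of -0.52, and Tnfrsf13b, the receptor TACI, had a change of -0.82 ± 0.29 (adjusted p = 0.141). Of 22 genes of the type I interferon response, 19 had a change below 0 (48.9% of all genes), with a median of -0.49. That median was -0.88 and 0.07 in the lower and higher Amy1 arrays. Oas1a, an antiviral enzyme, had a change of -1.39 ± 0.42 (adjusted p = 0.094). The interferon gamma response had a median of -0.13, which combined -1.44 within arrays with Amy1 of 10 or less and 1.35 within arrays above 10, and its member Ubd had a change of -0.74 ± 0.68 (adjusted p = 0.60). The CD40 and NF-kB response had 11 tested genes with a median of -0.12, and Tnf, tumour necrosis factor, had a change of -0.35 ± 0.17 (adjusted p = 0.268). Cxcl13, the chemokine that draws B cells into follicles, had a change of -1.51 ± 0.54 (adjusted p = 0.144), and Cd4, the helper T cell co-receptor, one of -1.21 ± 0.41 (adjusted p = 0.128). MHC class II was split, with Cd74, the invariant chain, at 1.02 ± 0.54 (adjusted p = 0.331) and H2-DMb2 at -1.13 ± 0.48 (adjusted p = 0.214), and the list median was -0.09, with -0.69 and 0.84 in the lower and higher Amy1 arrays. Mast cell genes lay above 0 in 5 of 5 (51.1% of all genes) with a median of 0.72. The mast cell chymase gene Cma1 had a change of 1.09 ± 0.33 (adjusted p = 0.094). Macrophage and dendritic cell genes had a median of 0.02, with -0.55 and 0.89 in the lower and higher Amy1 arrays, and Csf1r, the receptor of their main growth factor, had a change of 0.85 ± 0.30 (adjusted p = 0.138).

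**Figure D4:**
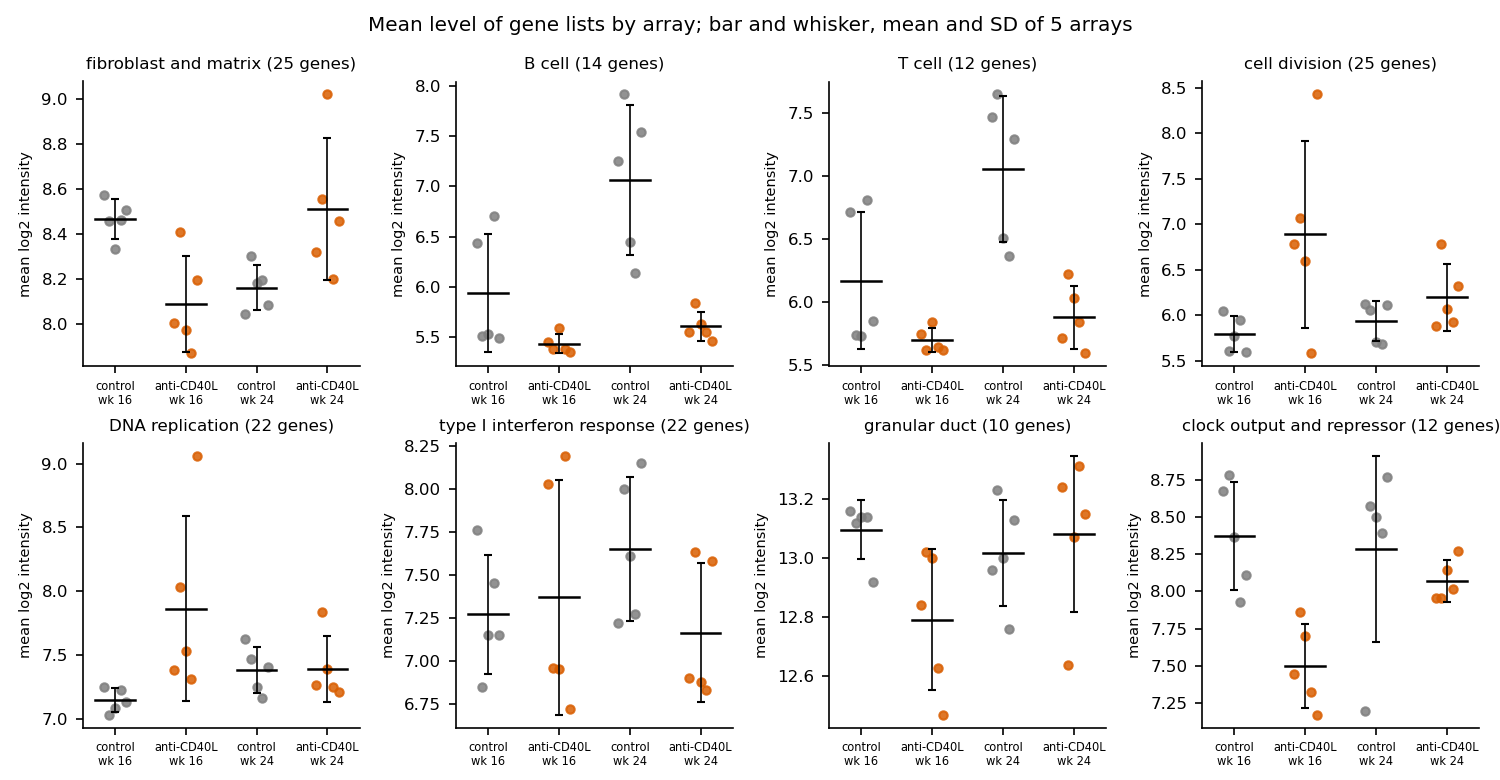
Mean log2 intensity of the tested members of 8 gene lists in each of the 20 arrays, with bars for the mean and whiskers for the SD of 5 arrays. The fibroblast and matrix list is low after anti-CD40L at week 16 and high at week 24, whereas the B and T cell lists are high in week 24 controls and in 2 of the 5 week 16 controls.

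The alarmins of neutrophils and stressed epithelium moved downward. S100a8 and S100a9 encode the 2 chains of calprotectin and lie side by side on chromosome 3. S100a8 read 4.48, 4.33, 4.24, 4.87 and 4.76 in controls and 6.09, 4.46, 5.73, 6.36 and 6.91 after anti-CD40L at week 16. It read 6.53, 5.49, 6.10, 4.53 and 5.28 in controls and 4.30, 5.51, 4.75, 5.13 and 4.29 after anti-CD40L at week 24. The change was -2.16 ± 0.48 (adjusted p = 0.026). At week 16, 4 of 5 treated arrays were above every control, and treated replicate 2 was within their range. The week 16 controls, at 4.24 to 4.87, lay near the lower end of the scale. At week 24 the groups overlapped, with 2 treated arrays below every control. S100a9 changed by -1.85 ± 0.41 (adjusted p = 0.0234), from means of 4.83 and 5.94 to 5.87 and 5.13. These were the 2 called members of 10 tested neutrophil and eosinophil genes (0.531% of all genes), whose median change was -0.37. With the 3' minus 5' difference as a covariate the adjusted p was 0.0728 for S100a8 and 0.0723 for S100a9. It was 0.0624 and 0.0537 without week 24 control replicate 1.

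Other genes that moved downward are no immune markers. Ttr, transthyretin, a carrier of thyroid hormone and retinol, read 6.98, 7.92, 7.48, 8.05 and 7.63 in controls and 9.75, 9.89, 8.63, 11.27 and 9.94 after anti-CD40L at week 16. It read 9.02, 7.62, 7.66, 8.96 and 6.03 in controls and 6.37, 8.46, 5.94, 6.21 and 7.58 after anti-CD40L at week 24. The change was -3.23 ± 0.80 (adjusted p = 0.0408). Every treated array was above every control at week 16, and the groups overlapped at week 24. Its 3 other probe sets were at -1.51 to -3.60. Ttr lost its call in 13 of the 20 fits that left out 1 array, with adjusted p up to 0.0982 without week 24 control replicate 1. Its adjusted p was 0.115 with the 3' minus 5' difference as a covariate, 0.0811 with the median over probe sets and 0.0584 within arrays with Amy1 of 10 or less.

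Ugt8a, the enzyme that adds galactose to ceramide, read 6.44, 5.87, 6.42, 5.55 and 6.41 in controls and 7.38, 7.38, 7.48, 8.07 and 8.23 after anti-CD40L at week 16. It read 7.20, 6.58, 6.50, 6.73 and 6.94 in controls and 6.26, 6.59, 6.47, 6.66 and 6.93 after anti-CD40L at week 24. The change was -1.78 ± 0.32 (adjusted p = 0.00829). At week 16 all treated arrays were above all controls, and at week 24 the groups overlapped. Its call held in all 20 fits that left out 1 array. Slc36a4, an amino acid transporter, changed by -1.28 ± 0.28 (adjusted p = 0.022), from means of 7.95 and 9.22 to 7.89 and 7.88. Folh1, a membrane peptidase that removes glutamate, changed by -1.94 ± 0.48 (adjusted p = 0.042), from 4.84 and 6.51 to 4.64 and 4.37. Its treated week 16 arrays read 5.56 to 8.03, and no array of the other groups read above 5.33, under the array medians. The filter for testing needs at least 5 arrays above the median, so of these 20 arrays only that group counted toward it. In Ugt8a, Slc36a4 and Folh1 the treatment effect was upward at week 16 (1.57, 1.27 and 1.67, adjusted p 0.000262, 0.000449 and 0.00866). At week 24 it did not pass (-0.21, -0.01 and -0.28, adjusted p 0.55, 0.981 and 0.611). Folh1 lost its call in 13 of the 20 fits, with adjusted p up to 0.0992 without anti-CD40L replicate 5 of week 16, and Slc36a4 in 3, with adjusted p up to 0.0553 without the same array. Without week 24 control replicate 1 the adjusted p was 0.0969 for Folh1 and 0.0537 for Slc36a4, and with the 3' minus 5' difference as a covariate 0.0709 and 0.0614. Folh1 was at -1.37 (adjusted p = 0.215) within arrays with Amy1 of 10 or less.

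Steap1, a membrane protein of the metalloreductase family, changed by -1.01 ± 0.16 (adjusted p = 0.00345). Its values at week 16 were 6.06, 5.95, 5.87, 6.06 and 5.81 in controls and 6.25, 6.69, 6.59, 6.95 and 6.68 after anti-CD40L. At week 24 they were 6.05, 6.33, 6.43, 6.16 and 6.32 in controls and 5.89, 5.80, 6.19, 5.96 and 5.82 after anti-CD40L. All treated arrays were above all controls at week 16, and 4 of 5 were below all controls at week 24. Ncoa7, a nuclear receptor coactivator linked to oxidation resistance, changed by -1.40 ± 0.31 (adjusted p = 0.0231), from means of 6.31 and 7.02 to 6.89 and 6.20. Without anti-CD40L replicate 5 of week 16 the adjusted p of Ncoa7 was 0.0573, without week 24 control replicate 1 it was 0.0539, and with the 3' minus 5' difference as a covariate 0.0649. Gpx2, a glutathione peroxidase of epithelia, had a change of -1.76 ± 0.49 (adjusted p = 0.0757), from 7.94 and 9.89 to 8.14 and 8.34. Myot, a muscle protein, had a change of -1.86 ± 0.50 (adjusted p = 0.065), from 4.48 and 6.83 to 4.29 and 4.78. For Gpx2 and Myot the effect at week 16 passed (1.96 and 2.35, adjusted p 0.0024 and 0.000401). Mean levels of the skeletal muscle markers Acta1, Ckm, Myh4 and Tnnt3 were 4.69 to 4.82 in the same week 16 treated arrays and 4.78 to 4.85 in controls, so Myot was high there without them.

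Genes of the endoplasmic reticulum were also among those that moved downward. Fkbp11, a prolyl isomerase of secretory cells and the called member of 13 plasma cell genes (0.531% of all genes, list median -0.21), changed by -0.79 ± 0.19 (adjusted p = 0.04), from means of 10.21 and 10.72 to 10.58 and 10.31. Its 2 other probe sets, of lower signal, were at 0.08 and 0.04. Mzb1, a plasma cell chaperone of the same compartment, had a change of -0.29 ± 0.49 (adjusted p = 0.798). Mydgf, a secreted factor held in the endoplasmic reticulum, changed by -0.68 ± 0.17 (adjusted p = 0.0447), and Alg5, an enzyme of protein N-glycosylation, by -0.45 ± 0.11 (adjusted p = 0.0447). Srp54b, a subunit of the signal recognition particle that directs proteins to this compartment, changed by -1.09 ± 0.22 (adjusted p = 0.0156), from 6.47 and 6.89 to 7.0 and 6.34. At week 24 every treated array of Srp54b was below every control. Without week 24 control replicate 1 the adjusted p was 0.0907 for Fkbp11, 0.104 for Mydgf and 0.102 for Alg5, and 0.0246 for Srp54b. With the 3' minus 5' difference as a covariate the adjusted p was 0.0872, 0.125 and 0.0882 for the first 3 and 0.0485 for Srp54b. With the median over probe sets Mydgf was at -0.30 (adjusted p = 0.45) and Alg5 at -0.29 (adjusted p = 0.132), so both lost their call. Mydgf, Alg5 and Srp54b were picked after their values were seen.

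Cell division genes had mostly changes below 0 and no call, and single genes of the cycle outside the lists passed. Of 25 tested cell division genes 0 passed and 24 had a change below 0 (48.9% of all genes), with a median of -0.86. That median was -1.93 within arrays with Amy1 of 10 or less, and within arrays above 10 it was 0.17. Of 22 DNA replication genes 0 passed and 21 had a change below 0, with a median of -0.72 (-1.11 and -0.34 in the lower and higher Amy1 arrays). The median treatment effect of the division list was 1.32 at week 16, where 9 members passed upward (1.31% of all genes), and 0.24 at week 24, where 0 passed. The mean level of the division list in treated week 16 arrays was 6.78, 7.07, 6.60, 5.58 and 8.43, against 5.60 to 6.05 in controls. Replicate 5 was thus the highest, and replicate 4 lay just below the lowest control. Mki67, the proliferation antigen, read 8.05, 8.52, 7.84, 5.89 and 10.18 in these arrays and had a change of -1.30 ± 0.63 (adjusted p = 0.273). Cdk1, the kinase of mitotic entry, had a change of -1.52 ± 0.55 (adjusted p = 0.154), and Prim1, a DNA primase subunit, one of -1.25 ± 0.35 (adjusted p = 0.0785). Without anti-CD40L replicate 5 of week 16, Mki67, Cdk1 and Prim1 were at -0.78, -1.03 and -0.93.

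Among the called genes were E2f2, a transcription factor of the cell cycle, Tipin, a protein of the replication fork, and Tedc1, a centriole protein, all picked after their values were seen. E2f2 changed by -0.85 ± 0.20 (adjusted p = 0.0328), from means of 5.11 and 5.79 to 5.31 and 5.14. Outside the treated week 16 arrays, E2f2 lay above the array median only in week 24 control replicate 2, at 5.65. Among the arrays compared here, mainly the treated week 16 arrays thus counted toward its filter for testing. Tipin changed by -1.02 ± 0.24 (adjusted p = 0.0336), from 8.07 and 8.71 to 8.66 and 8.28. Tedc1 changed by -1.02 ± 0.24 (adjusted p = 0.0314), from 6.27 and 6.98 to 6.26 and 5.96. In all 3 genes every treated array was above every control at week 16. In 8, 10 and 8 of the 20 fits that left out 1 array they lost their call, with adjusted p up to 0.0721, 0.0841 and 0.0674. Those maxima came without anti-CD40L replicate 1 of week 24 for E2f2 and Tedc1 and without control replicate 1 of week 24 for Tipin. Without anti-CD40L replicate 5 of week 16 all 3 lost their call, at -0.70, -0.82 and -0.86 (adjusted p 0.0632, 0.0601 and 0.0632). E2f2 had an adjusted p of 0.0679 and Tedc1 of 0.0503 without week 24 control replicate 1. That of Tipin was 0.104 with the 3' minus 5' difference as a covariate. E2f2, Tipin and Tedc1, within arrays with Amy1 of 10 or less, were at -1.18, -1.29 and -1.21 (adjusted p 0.057, 0.0692 and 0.0626).

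Clock output and repressor genes had a median treatment effect of -0.70 at week 16 and -0.20 at week 24, and clock activator genes one of 0.43 and 0.56. Of 12 clock output and repressor genes 0 passed and 11 had a change above 0 (51.1% of all genes), with a median of 0.56. Dbp, an output factor of the daily clock, averaged 10.44 and 7.42 at week 16 and 10.55 and 9.63 at week 24, and had a change of 2.10 ± 0.87 (adjusted p = 0.201). Its treatment effect was -3.02 ± 0.61 at week 16 (adjusted p = 0.00772). Arntl, the activator BMAL1, which peaks in the opposite phase, had an effect of 2.08 ± 0.31 at week 16 (adjusted p = 0.000401) and 1.34 ± 0.31 at week 24 (adjusted p = 0.0115), and a change of -0.74 ± 0.44 (adjusted p = 0.397). Bhlhe40, a repressor of the clock, had a change of 0.98 ± 0.32 (adjusted p = 0.117). The hour of collection is not given in the labels, so time of day and treatment cannot be told apart. Klf4, an immediate early and epithelial factor, had a change of 0.93 ± 0.25 (adjusted p = 0.0643), the nearest to the threshold of 24 immediate early genes.

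**Figure D5:**
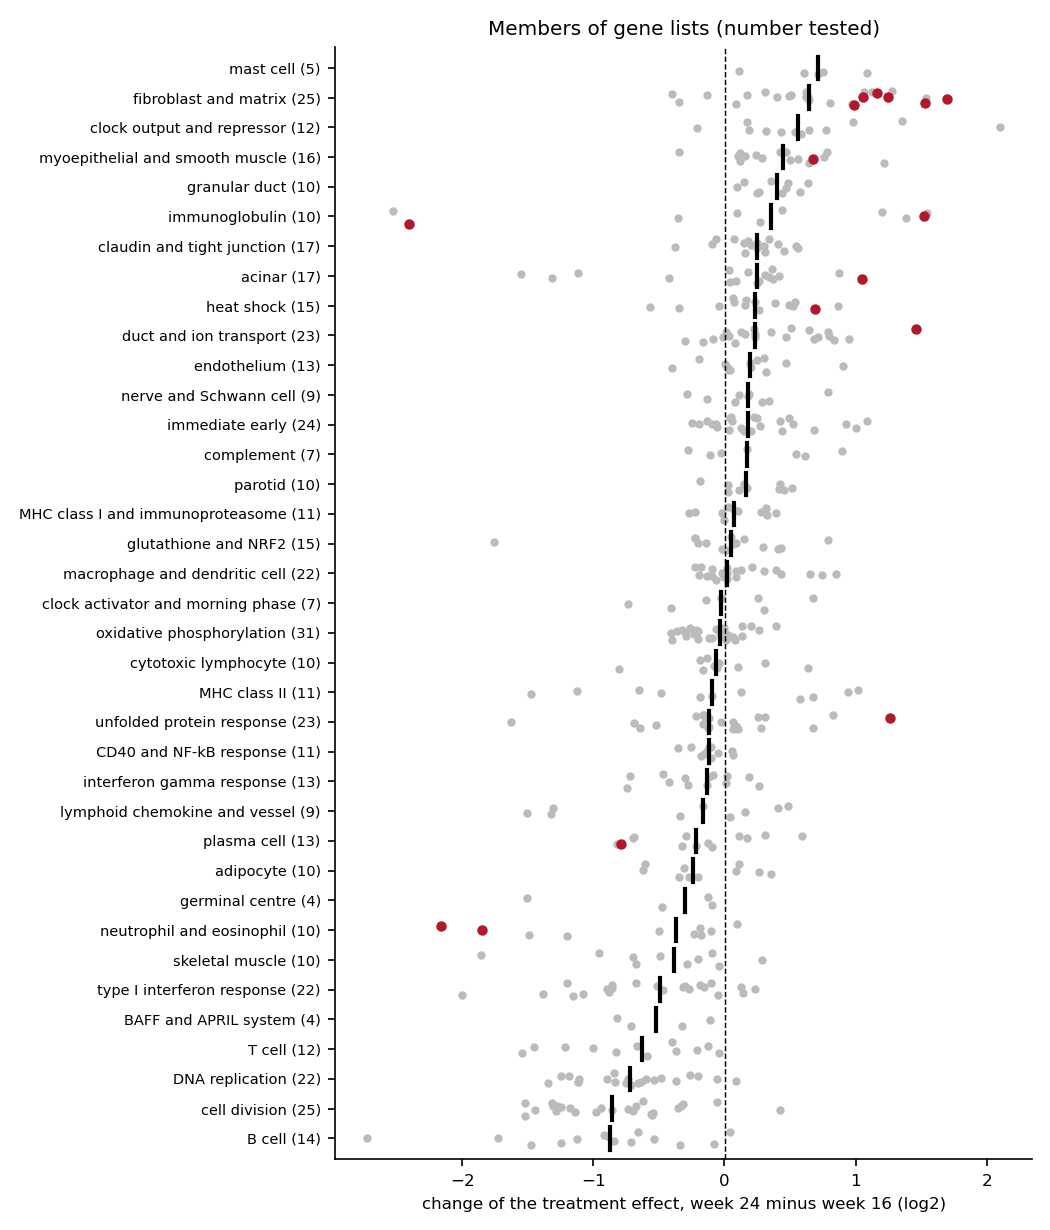
Change of the treatment effect, week 24 minus week 16 (log2), for each tested member of the gene lists with 2 or more tested members, with the number tested in brackets and a black bar at the list median. Red points passed adjusted p under 0.05; 6 of the 16 red points lie in the fibroblast and matrix list, and the lists of B cells, cell division and DNA replication have the lowest medians with 0 calls.

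The target pair had no call. Cd40lg was near the lower end of the scale, with means of 4.86, 4.87, 4.70 and 4.76 in the order control week 16, anti-CD40L week 16, control week 24 and anti-CD40L week 24, and was under the filter for testing. Cd40, its receptor, averaged 6.32 and 5.91 at week 16 and 6.68 and 6.09 at week 24. The change was -0.18 ± 0.22 (adjusted p = 0.72). The effect on Cd40 was downward at both ages and passed at week 24 (-0.59 ± 0.16, adjusted p = 0.0229). Of the 151 genes whose effect changed, 16 belonged to a list and 135 to none, and the 38 lists held 509 tested genes.

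The remaining lists had 0 calls and are given by their median change. Oxidative phosphorylation genes were at -0.04 over 31 tested, with Uqcrq, a subunit of complex III, at -0.40 ± 0.12 (adjusted p = 0.102). Claudin and tight junction genes were at 0.25 over 17, with Cldn10 at 0.25 ± 0.09 (adjusted p = 0.165), and parotid genes at 0.16 over 10, with Prol1 at 0.15 ± 0.09 (adjusted p = 0.373). Endothelial genes were at 0.19 over 13, with Egfl7, a secreted vessel factor, at -0.40 ± 0.17 (adjusted p = 0.219). Nerve and Schwann cell genes were at 0.18 over 9, with Sox10, a factor of Schwann cells that salivary epithelium also uses, at 0.79 ± 0.27 (adjusted p = 0.132). Adipocyte genes were at -0.24 over 10, with Plin4, a lipid droplet protein, at 0.36 ± 0.35 (adjusted p = 0.636). Skeletal muscle genes were at -0.39 over 10, and the 4 muscle markers averaged 4.82 to 6.39 in week 24 controls. Complement genes were at 0.17 over 7, with C1ra, a protease of the classical pathway, at 0.90 ± 0.33 (adjusted p = 0.155). Cytotoxic lymphocyte genes were at -0.07 over 10, with Ncr1, a receptor of natural killer cells, at 0.64 ± 0.38 (adjusted p = 0.382). MHC class I and immunoproteasome genes were at 0.07 over 11, with Psme1, a proteasome activator subunit, at 0.32 ± 0.22 (adjusted p = 0.476). In the lower and higher Amy1 arrays the medians were -0.23 and 0.77 for complement, -0.69 and 0.72 for cytotoxic, -0.24 and 0.85 for MHC class I and -0.43 and 0.27 for lymphoid chemokine genes. The adipocyte median turned to 0.21 with the 3' minus 5' difference as a covariate. Germinal centre genes were at -0.30 over 4, and lymphoid chemokine and vessel genes at -0.16 over 9. The glutathione and NRF2 list was at 0.05 over 15 and the clock activator list at -0.03 over 7, with Npas2, a partner of the clock activators, at -0.41 ± 0.20 (adjusted p = 0.297). Of the red blood cell list 1 gene was tested, Alas2, an enzyme of haem synthesis, at 0.43 ± 0.26 (adjusted p = 0.401).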

How the data were processed

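RNA of total salivary gland was labelled as biotinylated cRNA and hybridised to 30 arrays, 5 in each of 6 groups, per the labels' protocols. The deposited table holds log2 expression values of 45101 probe sets, made by the authors from the scanned arrays. The summarisation and normalisation are not given in the sources used here, and the submitters' processing notes name limma without a version. Array medians lay between 5.487 and 5.537, no value was missing, and the number of arrays limits the precision.

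The deposited log2 values were used without further normalisation. Of the probe sets, 34945 named 1 gene, 932 several and 9160 none, and 64 were array controls. Each of 18193 genes was read from its probe set with the highest mean over 30 arrays. Genes above the median of their array in at least 5 arrays were tested, 12998 in all. A model with a mean per group was fitted with limma 3.58.1 in R 4.3.3 on all 30 arrays, with Benjamini-Hochberg adjustment and a threshold of 0.05, and was tested on simulated data. Array measures were compared by exact permutation tests, two-sided.

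Genes named were the target pair, the 8 largest called changes in each direction and up to 4 called members of a list. From a list without a call, the member with the largest statistic was named. Other genes were picked after their values were seen. They were the genes described beside the fibroblast and matrix list, cell cycle and endoplasmic reticulum genes outside the lists, Steap1, Col6a3, Pdgfra and the uncalled markers. One gene named by the rule is not reported here. Members and lists were chosen with earlier results of these data known. Alternatives were other normalisations, filters, probe set rules, model options, covariates, a replicate block and leaving out arrays. Promoters came from RefSeq, build GRCm38.p6.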

Additional observations from a re-analysis of the deposited data

Results flagged for a closer look

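The treatment effect differed between weeks 16 and 24, by the test of that difference, for 151 genes. Among the fibroblast and matrix genes and the genes described beside them, the upward changes were 1.96 for Igfbp5, 1.87 for Cpxm1, 1.70 for Col1a2, 1.53 for Col6a2, 1.30 for Gas1, 1.25 for Col15a1, 1.17 for Col6a1, 1.11 for Fmod, 1.11 for Itga8, 1.06 for Col6a3, 0.99 for Pdgfra, 0.99 for Smoc2 and 0.85 for Notch1. In the genes described with epithelial, chaperone and antibody genes they were 1.60 for Tmigd1, 1.56 for Ret, 1.52 for Igha, 1.46 for Foxi1, 1.26 for Dnajb9, 1.05 for Bhlha15, 0.69 for Hspa1b and 0.67 for Trp63. The downward changes were -3.23 for Ttr, -2.41 for Ighg3, -2.16 for S100a8, -1.94 for Folh1, -1.85 for S100a9, -1.78 for Ugt8a, -1.40 for Ncoa7 and -1.28 for Slc36a4. They were -1.09 for Srp54b, -1.02 for Tipin, -1.02 for Tedc1, -1.01 for Steap1, -0.85 for E2f2, -0.79 for Fkbp11, -0.68 for Mydgf and -0.45 for Alg5.

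Single arrays lay far from the other 4 of their group, past Dixon's 95% value of 0.71, for 19 values among 332 groups of 5 looked at. Chance alone marks about 1 in 20 such groups. Week 24 control replicate 1 held 7 of them. It was lowest of its group for Bhlhe40 (8.79), Col15a1 (6.39), Dbp (8.37) and Aqp5 (10.89), and highest for Tnf (6.93), Srp54b (7.67) and Arntl (6.03). Anti-CD40L replicate 3 of week 24 was highest for Col1a2 (11.56), Col6a1 (8.85) and Col1a1 (7.60). Anti-CD40L replicate 2 of week 24 was lowest for Ret (8.02) and Dnajb9 (10.66) and highest for Prim1 (8.02). Anti-CD40L replicate 5 of week 16 was highest for E2f2 (6.40) and Tipin (9.51), and replicate 2 of that group for Col6a1 (8.28). Glycam1 was highest in week 16 control replicate 4 (6.34), Cd4 lowest in week 24 control replicate 3 (7.18) and Myot lowest in week 24 control replicate 5 (3.83).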

How the results depend on the processing

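The number of genes called, 82 upward and 69 downward, depended on the settings. All 151 kept their direction in the 20 fits that left out 1 array, which the choice of genes with a large change favours by itself. The counts were 183 upward with the 20 arrays alone, 149 and 116 after quantile normalisation, 503 and 263 with array weights, 146 upward with the Amy1 class and 129 with the Amy1 level as a covariate, and 183 and 166 within arrays with Amy1 of 10 or less. They were 33 and 38 with the 3' minus 5' difference as a covariate, with 54 of the genes called in the main analysis among them. Chosen after seeing the data, 2 settings gave 23 and 20 (without control replicates 1 and 4 of week 16) and 0 and 0 (arrays with Amy1 above 10). With the replicate number as a block they were 68 and 43, but same-numbered arrays did not deviate together (correlation of deviations -0.32 to 0.31) and the numbers pair nothing.

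Leaving out 1 array gave 26 to 156 upward and 19 to 208 downward. The total of 151 moved by over 1.5 times without control replicates 1, 2 and 5 of week 16 (76, 51 and 65), anti-CD40L replicates 4 and 5 of week 16 (55 and 46), control replicates 1, 2, 3 and 4 of week 24 (47, 229, 97 and 352) and anti-CD40L replicates 1, 3 and 4 of week 24 (68, 81 and 82). Of 37 named called genes, 13 kept their call in all 20 of these fits, and 36 kept 1 sign in all settings. The exception was Fkbp11, at 0.0816 with the median over probe sets.

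None of the other genes that changed sign was called in the main analysis. Uqcrq was at 0.0106 with the median over probe sets. With the 3' minus 5' covariate Cd40 was at 0.0022, Mzb1 at 0.0095 and Aqp5 at -0.20. Within arrays with Amy1 of 10 or less Cd74 was at -0.13 and Aqp5 at -0.20, and leaving out 1 array put Aqp5 between -0.12 and 0.12. Within arrays with Amy1 above 10, H2-DMb2 was at 0.24, Ubd at 0.84, Plin4 at -0.0702, Ighm at 0.51, Mzb1 at 1.14, Cd3d at 0.0782 and Mki67 at 0.38. The cause of these shifts was not tested.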
